A study of Mus musculus with 4 samples.

Results

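The granzymes and perforin are the proteins that cytotoxic lymphocytes store in granules and release onto a target cell. The 10 genes described here are Gzma, Gzmb, Gzmc, Gzmd, Gzme, Gzmf, Gzmg, Gzmk, Gzmm and Prf1. They were taken as every non-control probe whose gene name in the scanner files equalled one of these symbols. They had 12 probes among the 55681 on the array, which together carried 26680 gene names. Gzme and Gzmk had 2 probes each and the other 8 genes had 1 each.

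Expression was measured on 4 one-colour Agilent arrays hybridised with Cy3-labelled total RNA of mouse CD4+ T cells. There were 2 arrays of miR-155 knockout cells (miR-155-/-) and 2 of wild-type cells (miR-155+/+). Cells of both genotypes were cultured with anti-CD3e, anti-CD28, TGFb and IL-6, which direct naive T cells towards the T helper 17 (Th17) fate, and both carried a red fluorescent protein (RFP) reporter of IL-17F. Before RNA extraction they were sorted for CD4 and for RFP. The labels give no strain, age or sex, and do not say in which cells miR-155 was deleted or how many animals were used. The design text calls the arrays of a genotype biological replicates, but nothing in the labels links arrays to animals or cultures, so the p-values measure only the spread between these samples, which may be technical.

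Perforin forms pores in the target membrane, and granzymes, which are serine proteases, enter through them and cleave proteins inside the cell. Granzyme B cleaves after aspartate and activates caspases, and granzyme A cleaves after basic residues. In the mouse, Gzma and Gzmk neighbour each other, Gzmb to Gzmg lie in a cluster of serine protease genes beside the mast cell chymases, and Gzmm and Prf1 lie elsewhere. Natural killer (NK) cells and CD8+ T cells are the main users of this machinery, and some CD4+ T cells also express it. miR-155 is a microRNA of activated lymphocytes that represses messages through its seed. Of the mature strands of miR-155, which also include mmu-miR-155-3p, the 5p strand is shown so that the seed can be seen. It is taken from RefSeq (GRCm38.p6, chr16:84714143-84714165, plus strand), with the seed, bases 2 to 8, in capitals.
mmu-miR-155-5p: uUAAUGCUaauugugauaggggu
No probe analysed here carried a name of miR-155, so its loss was not checked on these arrays.

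Values are log2 processed signals relative to the 75th percentile of the same array, so 0 is the level of a fairly bright probe. A probe is called well above background where the scanner software flagged it so. Signals of different probes are not read as relative amounts of their targets, since each probe binds its target to its own extent. The share of spots well above background was 63.5% to 69.8% per array, and 0 spots were saturated. The number of arrays limits the precision. All arrays lay on 1 slide, the knockout arrays in row 2 and the wild-type arrays in row 1, so that row and genotype cannot be told apart. Knockout array 1 stood apart from the others in evenness. The SD of its fitted multiplicative surface was 0.157, against 0.0498 to 0.0557 on the other arrays. Il17f, the gene whose reporter was sorted, had levels of 1.52 and 1.92 in knockout cells and of 3.68 and 3.78 in wild-type cells. Cd4 was at 5.02 and 5.29 in knockout cells and at 5.35 and 5.29 in wild-type cells.

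Granzyme A, B, C and E and perforin had higher signals in knockout than in wild-type cells, while granzyme K and granzyme M did not. Of the 10 genes, 8 were tested, meaning that in 1 genotype or both the 2 arrays gave a signal well above background, and 7 were so on all 4 arrays. Gzmd and Gzmg were not tested, and Gzmf was tested through the knockout arrays, since 1 of its wild-type arrays was not well above background. Among the 7, 5 were higher and 0 lower in knockout cells at an unadjusted p under 0.05 (limma), where 7.1% of the 17910 genes measured as well were higher and 3.84% lower. The knockout arrays lay above both wild-type arrays for 5 of the 7, against 25.7% of those genes, and 5 were at least 2-fold higher, against 1.53%. The median difference of the 7 was 1.23 (log2 knockout minus wild type), and that of the 17910 genes 0.017. After Benjamini-Hochberg adjustment over all 19151 tested genes 0 passed 0.05, as did 0.0% of all genes, the smallest adjusted p being 0.254. With 2 arrays a genotype, the smallest two-sided p of an exact permutation test is 0.333. Without knockout replicate 2 the count of 5 became 3, and scaling by array medians also gave 3. With scaling by array medians 733 of all 19151 tested genes were higher at an unadjusted p under 0.05 (limma), against 1384 with the main scaling. A pool of sorted cells cannot tell fewer cells of a type from less RNA per cell.

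**Figure D1:**
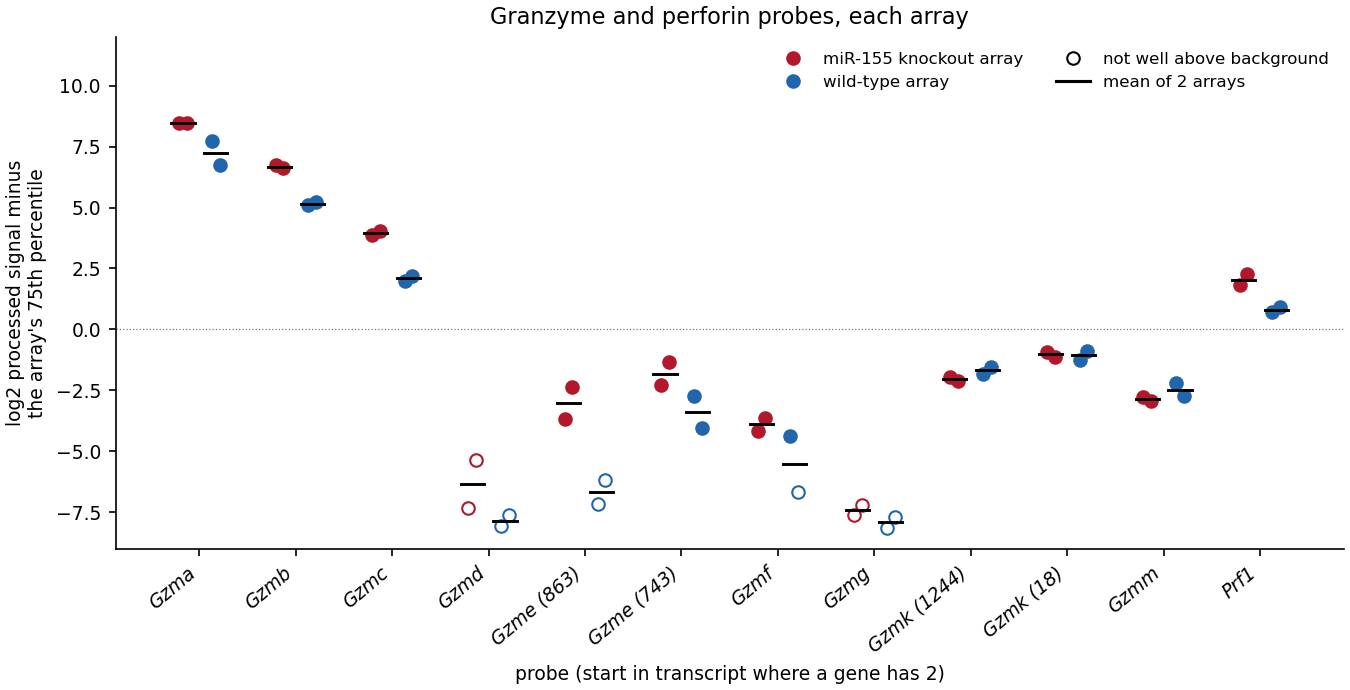
Log2 processed signal relative to the array's 75th percentile (y axis) for all 12 probes (x axis, with the start in the transcript where a gene has 2 probes). Knockout arrays are red and stand left of the blue wild-type arrays, black bars are means of 2 arrays, and open circles are not well above background. For Gzmb the knockout arrays sit at 6.72 and 6.62 and the wild-type arrays at 5.10 and 5.21, while all circles of Gzmd and Gzmg are open.

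Perforin, the pore former on which entry of granzymes depends, was higher in knockout cells. Prf1 had levels of 1.82 and 2.27 on the knockout arrays, against 0.70 and 0.93 on the wild-type arrays. Both knockout arrays lay above both wild-type arrays. The difference was 1.23 ± 0.21 (SE), a 2.34-fold higher signal, with an unadjusted p of 0.00368 and an adjusted p of 0.296 by limma. The unscaled processed signals were 1581 and 2302 in knockout cells and 924 and 1168 in wild-type cells. The probe lay on mm9 chromosome 10, on the plus strand at chr10:60766941-60767000. Exon and UTR annotation on mm9 was not used here.

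Granzyme B, the caspase-activating protease, was also higher. Gzmb levels were 6.72 and 6.62 in knockout cells and 5.10 and 5.21 in wild-type cells. The arrays of each genotype lay within 0.11 log2 units of each other, and the groups did not overlap. The knockout mean was 6.67 ± 0.07 and the wild-type mean 5.16 ± 0.08 (SD, n = 2 each). The difference of 1.51 ± 0.13 (SE), a 2.86-fold higher signal, had an unadjusted p of 0.000211 and an adjusted p of 0.254 by limma. Its probe was at chr14:56877916-56877975 on the minus strand of mm9.

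Granzyme C, whose gene neighbours Gzmb and which is induced in strongly activated mouse lymphocytes, had the largest difference of the 8 genes at their brightest probe. Gzmc levels were 3.86 and 4.03 in knockout cells and 1.98 and 2.21 in wild-type cells. The means were 3.95 ± 0.12 and 2.10 ± 0.16 (SD, n = 2 each). The groups did not overlap, and the 1.85 ± 0.15 (SE) difference was a 3.61-fold higher signal, with an adjusted p of 0.254 by limma. The probe was at chr14:56850307-56850366, minus strand. Gzmb, Gzmc and Prf1 had an unadjusted p under 0.05 under each of the 16 alternative settings, each array left out included.

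Granzyme A, a tryptase of the family, was higher in knockout cells, but its wild-type arrays lay far apart. Gzma levels were 8.46 and 8.47 in knockout cells, against 7.73 and 6.75 in wild-type cells. The knockout arrays were nearly identical, and both lay above the wild-type arrays. The difference was 1.22 ± 0.36 (SE), a 2.34-fold higher signal, with an unadjusted p of 0.0256 and an adjusted p of 0.388 by limma. Unscaled processed signals were 157427 and 169311 in knockout cells and 120949 and 65759 in wild-type cells. Without wild-type replicate 2 the difference was 0.73, and the unadjusted p was 0.0855 and 0.0873 without knockout replicates 1 and 2. It was 0.0548 with scaling by array medians. The probe was at chr13:113884035-113884094, minus strand.

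Granzyme K, a tryptase encoded beside Gzma, did not share that difference. Its probe starting at base 18 of the transcript, the brighter of its 2, had levels of -0.91 and -1.13 in knockout cells and of -1.25 and -0.87 in wild-type cells. The groups overlapped, with a difference of 0.04 ± 0.19 (SE) and an unadjusted p of 0.832 (limma). That sign turned under 6 of 16 alternatives, among them scaling by array medians (-0.12). The probe starting at base 1244, for which the files list no accession found in RefSeq's table, was at -1.94 and -2.12 in knockout cells and at -1.81 and -1.55 in wild-type cells. Here the knockout arrays lay below the wild-type arrays by -0.35 ± 0.17 (SE), with an unadjusted p of 0.0986 in the limma fit over probes. With scaling by array medians it was -0.51 (unadjusted p 0.0169) and with quantile scaling -0.44 (0.0376). The probe nearer the 5' end spanned chr13:113970774-113971087, a stretch longer than its 60 bases, and the other was at chr13:113961816-113961875.

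Granzyme M, a protease known mainly from NK cells, was the only tested gene of the 10 whose knockout arrays lay below both wild-type arrays at its brightest probe. Over all genes 22.4% did so. Gzmm levels were -2.77 and -2.93 in knockout cells, against -2.20 and -2.72 in wild-type cells. The difference was -0.39 ± 0.22 (SE), with an unadjusted p of 0.150 by limma. It was -0.65 without wild-type replicate 2, with an unadjusted p of 0.0352, and -0.13 without wild-type replicate 1. The probe was at chr10:79157946-79158005, plus strand.

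**Figure D2:**
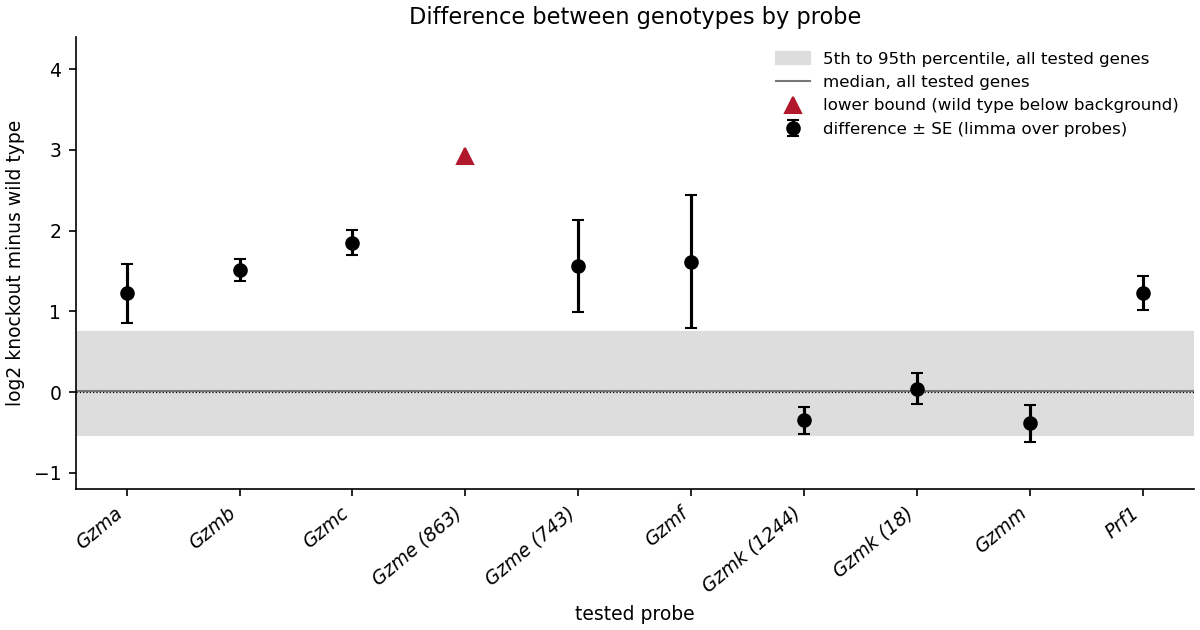
Log2 difference between genotypes, knockout minus wild type (y axis), for the 10 tested probes (x axis). Points with bars are differences ± SE from limma over all probes, and the grey band spans the 5th to 95th percentile of all tested genes (-0.53 to 0.75). The triangle is the Gzme probe that was not well above background in wild-type cells. It is drawn with wild type set to the lowest signals well above background, which is not a strict lower bound. Gzma, Gzmb, Gzmc, Gzme, Gzmf and Prf1 lie above the band, and both Gzmk probes and Gzmm inside it.

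The remaining members, Gzmd, Gzme, Gzmf and Gzmg, are close paralogues next to Gzmc that are expressed in activated mouse T and NK cells and in the uterus in pregnancy. Their probes were dim. The letters of the probes were compared with each other only, not with the transcripts of the paralogues. They therefore do not show how far the paralogues can be told apart. The files list accessions of both Gzme and Gzmd for the Gzme probe that starts at base 743, so its signal may come from either. That probe (chr14:56736576-56736635) also shares a run of 18 bases with the probe of Gzmn, a further granzyme gene of the cluster (chr14:56784795-56784854). The Gzmf (chr14:56824785-56824844) and Gzmg (chr14:56776063-56776122) probes match at 38 of 48 overlapping bases, with no run beyond 8. All are from the scanner files, on the minus strand of mm9. Capitals mark the longest run shared by the 2 probes of a pair, and the Gzmd probe (chr14:56750116-56750175) is shown without any.
Gzme: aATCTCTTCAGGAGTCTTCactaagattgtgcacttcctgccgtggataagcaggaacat
Gzmn: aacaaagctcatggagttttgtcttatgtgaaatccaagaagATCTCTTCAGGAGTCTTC
Gzmf: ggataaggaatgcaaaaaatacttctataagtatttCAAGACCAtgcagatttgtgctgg
Gzmg: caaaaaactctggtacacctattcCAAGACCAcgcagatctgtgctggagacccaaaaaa
Gzmd: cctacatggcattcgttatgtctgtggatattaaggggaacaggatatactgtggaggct

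Both Gzme probes were brighter in knockout cells. The probe shared with Gzmd was at -2.29 and -1.35 in knockout cells and at -2.73 and -4.04 in wild-type cells, well above background on all 4 arrays. The knockout arrays lay above both wild-type arrays, and the difference was 1.57 ± 0.57 (SE), with an unadjusted p of 0.0491 and an adjusted p of 0.440 by limma. It was 0.91 without wild-type replicate 2, with an unadjusted p of 0.123, and 1.10 without knockout replicate 2, with one of 0.185. The Gzme probe starting at base 863 (chr14:56736456-56736515) was listed for Gzme only. It was at -3.68 and -2.34 in knockout cells and at -7.17 and -6.19 in wild-type cells, where neither array was well above background. The knockout mean was 7.59-fold above wild-type arrays set to a background level. The adjusted p was 0.396 in the limma fit over all 37196 tested probes. The probe was tested only because it was bright in knockout cells, and that p rests on wild-type values not well above background. For this fold each wild-type array was set to the lowest signal well above background on it, or to the measured signal where that was higher. Probes above that level could still go unflagged, so the fold is not a strict lower bound. On wild-type replicate 1, for example, Mcpt4 was unflagged at -5.74, while the lowest flagged signal was -6.41.

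Gzmf rested on a single wild-type measurement. Its levels were -4.15 and -3.63 in knockout cells and -4.35 and -6.66 in wild-type cells, with wild-type replicate 2 not well above background. The difference was 1.62 ± 0.83 (SE), with an unadjusted p of 0.119 by limma. It was 0.47 without wild-type replicate 2 and 2.77 without wild-type replicate 1. The probe lies in a corner block of the slide where probes were unevenly bright on some arrays. Gzmd and Gzmg were not well above background on any array. Gzmd had processed signals of 2.81 and 11.8 in knockout cells and 2.14 and 3.10 in wild-type cells, and Gzmg of 2.28 and 3.24 in knockout cells and 2.04 and 2.95 in wild-type cells. No fold is given for these genes. With Gzmd itself below background at base 168, the shared Gzme and Gzmd probe was not resolved further.

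**Figure D3:**
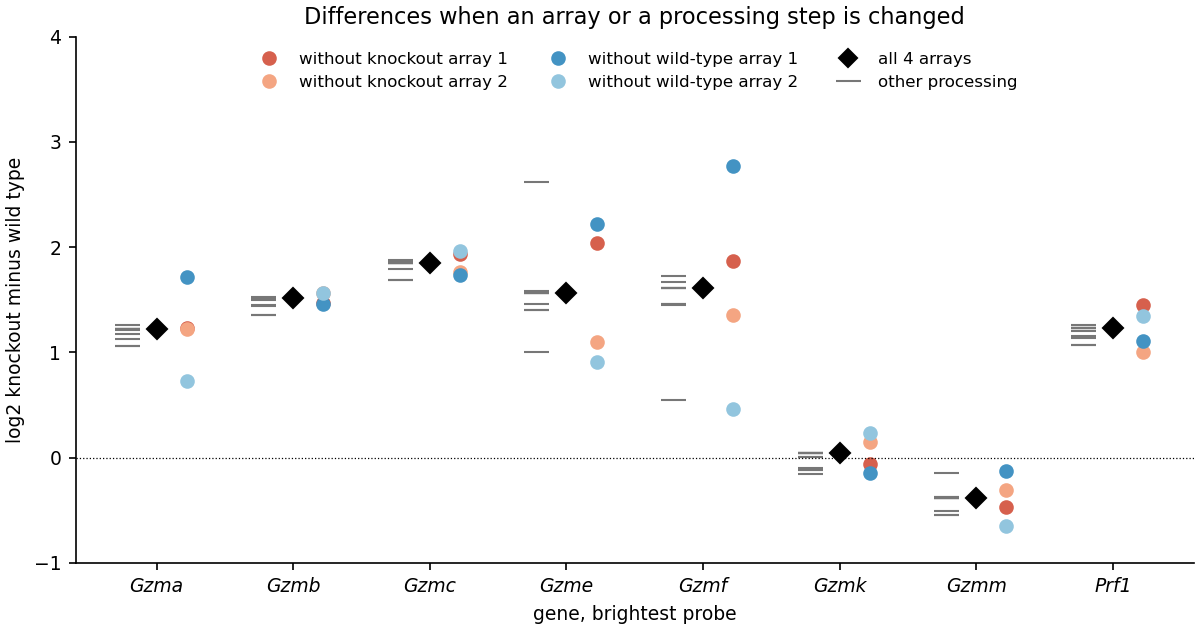
Log2 knockout minus wild type (y axis) of the 8 tested genes at their brightest probe (x axis). Diamonds use all 4 arrays, circles leave out 1 array and grey dashes use other processing of all arrays. Gzmb stays between 1.35 and 1.57, Gzmc between 1.69 and 1.97 and Prf1 between 1.0 and 1.45, while Gzmf runs from 0.47 to 2.77.

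Along chromosome 14 the probes ran, in ascending mm9 position, from the chymase genes through Ctsg, Gzme, Gzmd, Gzmg, Gzmn, Gzmf and Gzmc to Gzmb, all granzymes being on the minus strand. The span from the first Gzme probe to the Gzmb probe was 142 kb, with 27.6 kb between the Gzmc and Gzmb probes. In that order the differences were 1.57 for the shared Gzme probe, 1.62 for Gzmf, 1.85 for Gzmc and 1.51 for Gzmb. Between Gzme and Gzmf lay 3 genes below background. Gzmf was tested through its knockout arrays, since wild-type replicate 2 was not well above background, and its difference was 0.47 without that array. Of 9 other serine protease genes of the locus on the array, 3 were tested, namely Ctsg, Mcpt9 and Cma2. Ctsg, cathepsin G, was at -3.11 and -3.47 in knockout cells and -4.22 and -3.80 in wild-type cells, a difference of 0.72 ± 0.22 (SE), with an unadjusted p of 0.0294 and an adjusted p of 0.395 by limma. Mcpt9, a mast cell protease, was at -4.76 and -4.55 in knockout cells and -6.33 and -5.36 in wild-type cells. Wild-type replicate 1 was not well above background for Mcpt9, which was tested through its knockout arrays, so no difference is given. Cma2, a chymase, differed by 0.32. Cma1, Mcpt2, Mcpt8 and Gzmn were not well above background on any array, and Mcpt1 and Mcpt4 were so on 1 knockout array only.

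**Figure D4:**
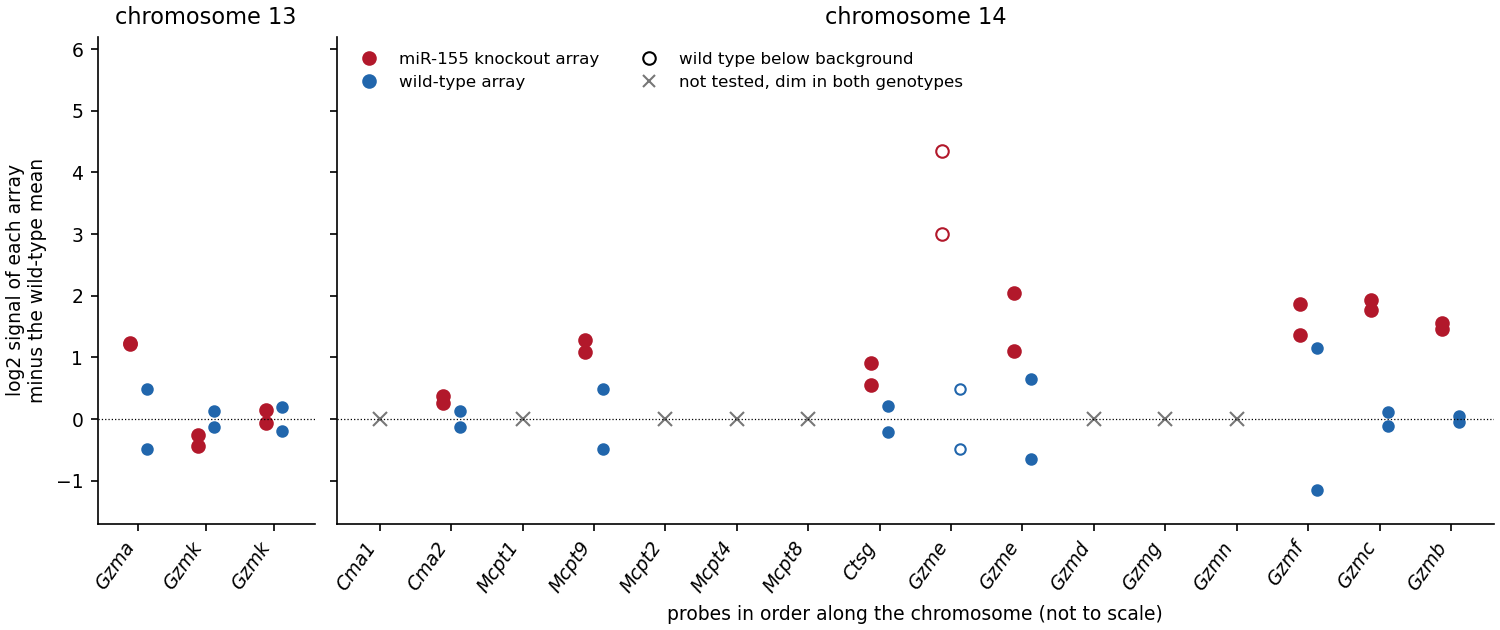
Log2 signal of each array minus the wild-type mean of that probe (y axis) for granzyme and neighbouring protease probes in order along chromosomes 13 and 14 (x axis, not to scale). Red knockout points stand left of blue wild-type points, open points are a probe below background in wild type, and crosses are probes not tested. On chromosome 13 the knockout arrays lie above for Gzma (difference 1.22) and not for the Gzmk probes (0.04 and -0.35). On chromosome 14 they lie above for every tested probe shown. However, Gzmf, Mcpt9 and the Gzme probe starting at base 863 were tested only through their knockout arrays. Among all genes well above background on all 4 arrays, 25.7% had both knockout arrays above.

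On chromosome 13 the probes of Gzma and Gzmk were 77.7 kb apart. The non-coding RNA gene between them, 1700084D21Rik, was at -4.11 and -4.65 in knockout cells and at -5.79 and -4.42 in wild-type cells, wild-type replicate 1 not being well above background. Of the 3 nearest tested genes on each side, Esm1, which encodes a secreted proteoglycan, differed by 1.15, Arl15 by 0.80 and Cdc20b by 0.86, all at an unadjusted p under 0.05. Gpx8, a glutathione peroxidase gene, was at 1.10, with an unadjusted p of 0.0612, and Mcidas and Snx18 were at 0.02 and 0.17. Beyond the chromosome 14 cluster on the Gzmb side, Atp12a, an ion pump gene, differed by 0.60 (unadjusted p 0.0383), and Cenpj and Parp4 by 0.01 and -0.20. On the other side Gm5801 was at -0.23. Beside Prf1, Adamts14, a procollagen-processing protease gene, was at 1.10 (unadjusted p 0.0221). Tbata, Sgpl1, Pald1, Nodal and Eif4ebp2 were at 0.14, -0.15, 0.34, 0.04 and -0.37, Pald1 being well above background on 1 of 2 knockout arrays. The 6 neighbours of Gzmm, Cdc34, Tpgs1, Madcam1, Bsg, Hcn2 and Polrmt, lay between -0.28 and 0.33. At an unadjusted p under 0.05, 11.4% of all tested genes were called in either direction.

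Since Gzmb, Gzmc and Prf1 had the steadiest differences, the 250 bases before the annotated start of each are shown. They are RefSeq sequences on GRCm38.p6, at chr14:56262335-56262584 (minus strand) for Gzmb, chr14:56234658-56234907 (minus strand) for Gzmc and chr10:61297586-61297835 (plus strand) for Prf1. Capitals mark matches, on either strand, to the letters TGTGGT (bound by RUNX factors), TGANTCA (AP-1) and TGACGTCA (the cyclic AMP response element, CRE).
Gzmb: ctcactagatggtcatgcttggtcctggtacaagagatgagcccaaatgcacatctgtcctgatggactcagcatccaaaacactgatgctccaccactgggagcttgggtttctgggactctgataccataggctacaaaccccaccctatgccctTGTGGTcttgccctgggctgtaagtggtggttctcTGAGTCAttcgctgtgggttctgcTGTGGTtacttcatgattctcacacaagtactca
Gzmc: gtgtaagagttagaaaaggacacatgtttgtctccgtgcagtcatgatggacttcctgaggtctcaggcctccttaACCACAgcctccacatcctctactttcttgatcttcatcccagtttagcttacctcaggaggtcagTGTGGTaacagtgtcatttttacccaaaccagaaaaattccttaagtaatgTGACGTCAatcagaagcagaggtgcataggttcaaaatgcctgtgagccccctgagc
Prf1: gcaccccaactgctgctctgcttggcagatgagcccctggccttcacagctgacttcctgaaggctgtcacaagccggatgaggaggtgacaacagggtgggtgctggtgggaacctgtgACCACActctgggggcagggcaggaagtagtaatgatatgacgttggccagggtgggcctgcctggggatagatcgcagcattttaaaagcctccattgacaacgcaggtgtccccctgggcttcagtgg

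The 10 genes had 11 such windows, Gzmm having 2. The RUNX letters were present in 9 of them and in 14% of all 32851 windows of this length. They occurred at 2 places in 6 windows, those of Gzmb, Gzmc, Gzmd, Gzme, Gzmf and Gzmg, against 1.27% of all windows. The spacing between the 2 places was 62 bases in Gzmd, Gzme, Gzmf and Gzmg, 66 in Gzmc and 59 in Gzmb, and these windows share ancestry. The AP-1 letters were in the Gzmb window only, 58 bases upstream of the start (6.75% of all windows), and the CRE letters in Gzmc, Gzmf and Gzmg (1.55%), at 57 bases upstream in Gzmc. The T-box letters GGTGTGA were in the Gzmk window and 1 of the Gzmm windows (3.33%), the STAT letters TTCNNNGAA in 1 Gzmm window (7.02%), and the NFAT letters GGAAA in 6 windows (55.6%). Matches of different motifs did not overlap in these windows. The 2 RUNX matches were thus in windows of Gzmb, Gzmc and Gzme, which had higher signals in knockout cells, and in those of Gzmd and Gzmg, which were below background. A match describes the sequence, not binding.

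The genes whose 4 values, each centred on its mean, lay nearest to those of Gzmb were Olfr228, Csta3, Lad1, Flt1 and Glra2, at root mean square distances of 0.044 to 0.114 log2 units over the 4 arrays. Olfr228 and Glra2 were not well above background on either wild-type array, so their distances rest in part on background values. Gzmc stood at rank 38 from Gzmb and Prf1 at rank 78. Nearest to Gzmc were Lad1, A630038E17Rik, a transcript without a gene symbol, Havcr2 and Morc1 (0.103 to 0.133), and Gzmb stood at rank 12. Havcr2, which encodes the receptor TIM-3, was at -1.19 and -0.77 in knockout cells and at -2.90 and -2.92 in wild-type cells. Nearest to Prf1 were Afap1l1, Emilin2, Cd8a, Hbegf and Speer9-ps1 (0.061 to 0.087). Morc1 and Speer9-ps1 were likewise not well above background on either wild-type array. With 4 arrays in 2 groups, any gene with a genotype difference of like size lies at a small distance.

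Genes that package, process, inhibit or switch on granzymes were read from separate lists, to be set against all 19151 tested genes, of which 7.23% were higher and 4.13% lower at the unadjusted threshold of 0.05. Of 15 tested genes of granule packaging and exocytosis, 2 were higher and 1 lower in knockout cells at an unadjusted p under 0.05, with a median difference of 0.06 (-0.02 to 0.11 with 1 array left out). Sytl2, which tethers granules to the membrane, was at -1.60 and -1.72 in knockout cells, against -3.06 and -3.35 in wild-type cells. The difference of 1.54 ± 0.16 (SE) had an unadjusted p of 0.000513. Nkg7, a granule membrane protein gene needed for efficient degranulation, was at 3.65 and 3.88 in knockout cells, against 2.67 and 2.82 in wild-type cells (1.02 ± 0.15, SE). Stx11, a syntaxin of granule fusion, was lower at 2.85 and 2.46 in knockout cells, against 3.12 and 3.19 in wild-type cells (-0.50 ± 0.18, SE). Srgn, the proteoglycan that packs granzymes, Lamp1, Rab27a and Unc13d, which primes granules for fusion, had differences of 0.06, 0.09, 0.08 and -0.04.

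Among 11 tested genes of granzyme processing and inhibition, 0 were called in either direction at that threshold, and the median was 0.12 (0.01 to 0.22 with 1 array left out). Ctsc, whose protease activates granzymes by removing a dipeptide, differed by -0.44 ± 0.17 (SE), and Serpinb9, the granzyme B inhibitor, by 0.64 ± 0.31 (SE). Ctsh, a second processing protease gene, was at 0.91 ± 0.69 (SE). Ctla2b, a cysteine protease inhibitor gene, had the largest difference of the list at -1.59 ± 1.25 (SE). Its levels were 4.12 and 7.69 in knockout cells and 7.69 and 7.29 in wild-type cells, with the low value on knockout array 1 and the probe in a corner block.

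Of 17 tested transcription factors tied to the cytotoxic program, an unadjusted p under 0.05 was found for 2 that were higher and 1 that was lower, with a median of -0.07 (-0.11 to 0.08 with 1 array left out). Eomes, a T-box factor that activates Prf1 and Gzmb in CD8+ T cells, was at -1.54 and -1.91 in knockout cells, against -3.14 and -2.42 in wild-type cells (1.05 ± 0.30, SE). Prdm1, which encodes Blimp-1, was at 1.32 and 1.09 in knockout cells, against 0.36 and 0.01 in wild-type cells (1.02 ± 0.18, SE). Tcf7, a factor of naive and memory T cells, was at 2.48 and 2.63 in knockout cells, against 3.22 and 3.20 in wild-type cells (-0.66 ± 0.13, SE). For these 3 genes the groups did not overlap, but of the 17 genes the knockout arrays lay above both wild-type arrays in 5 and below both in 6. Among all genes well above background on all 4 arrays, 25.7% had both knockout arrays above. Of all tested genes, 22.4% had both below. Tbx21, encoding T-bet, and Runx3 had differences of -0.52 and -0.26 and unadjusted p values of 0.132 and 0.109, the Tbx21 probe being in a corner block.

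Among 7 death ligands and effector cytokines, 1 was higher and 1 lower at that threshold, with a median of 0.66. That median was 0.08 without knockout replicate 1, 1.0 without knockout replicate 2, -0.19 without wild-type replicate 1 and 0.20 without wild-type replicate 2. Tnfsf10, the gene of the death ligand TRAIL, was at 0.72 and 0.43 in knockout cells, against -0.46 and -0.82 in wild-type cells (1.21 ± 0.20, SE). Lta, encoding lymphotoxin alpha, was at 5.01 and 4.70 in knockout cells, against 5.33 and 5.65 in wild-type cells (-0.64 ± 0.19, SE). Fasl, the Fas ligand gene of the other killing pathway of T cells, and Ifng differed by 0.74 ± 0.48 and 0.89 ± 0.40 (SE), with unadjusted p values of 0.199 and 0.0878. In none of these lists did a gene have an adjusted p under 0.05 in limma, as was so for all 19151 genes.

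**Figure D5:**
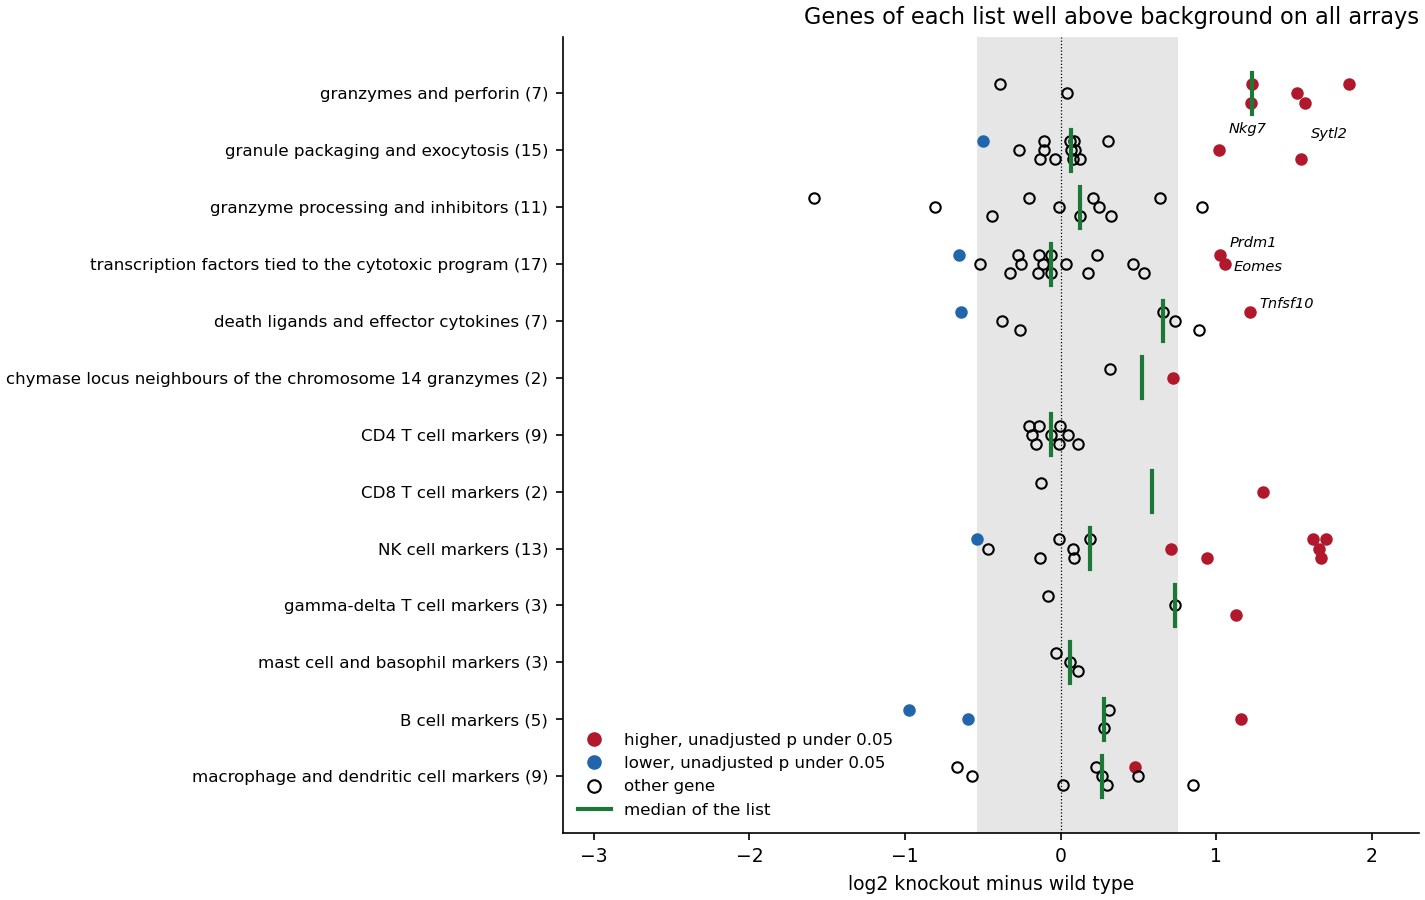
Log2 knockout minus wild type (x axis) of the genes well above background on all 4 arrays in the granzyme and perforin group, 5 lists of related genes and 7 lists of cell type markers (rows, with the number of genes). Red is higher and blue lower in knockout at an unadjusted p under 0.05, green bars are list medians and the grey band spans the 5th to 95th percentile of all genes. The median of granzymes and perforin is 1.23. Medians of the other lists run from -0.07 for the transcription factors to 0.73 for the gamma-delta T cell markers, with 0.06 for granule packaging.

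Markers of other lymphocytes were read beside the granzymes, since NK cells and CD8+ T cells hold them too. Of 9 tested CD4 T cell markers 0 were called, and Cd5 and Cd28 differed by -0.21 and -0.18. Levels were summed over the tested markers of a list on a linear scale. Such a sum weights each probe by its own brightness, so it serves to compare arrays and gives no amount of a cell type. The summed level, in units of the array's 75th percentile, was 766 to 777 in knockout cells and 787 to 839 in wild-type cells. Of the 2 CD8 T cell markers, Cd8a was at -2.65 and -2.37 in knockout cells, against -3.89 and -3.73 in wild-type cells (1.30 ± 0.16, SE), while Cd8b1 was at -1.82 and -1.97 in knockout cells, against -2.05 and -1.48 in wild-type cells. The summed level of both was 0.443 to 0.448 in knockout cells and 0.308 to 0.433 in wild-type cells. Of 13 tested NK cell markers, 6 were higher and 1 was lower at that threshold, beside 7.23% and 4.13% of all genes, with a median of 0.19. The median was 0.78 without wild-type replicate 1, 0.33 without knockout replicate 1 and 0.11 without wild-type replicate 2. Scaling by array medians gave 0.03, where the median of all genes was -0.14. The higher ones were the Ly49 receptor genes Klra1, Klra7, Klra8 and Klra4 (1.70, 1.67, 1.66 and 1.62), which have similar sequences, with Fcer1g at 0.94 and Itga2 at 0.71, and the lower one was Klre1 at -0.54. The defining marker Ncr1 was not well above background on any array, and Klrb1c was so on 1 knockout and 1 wild-type array. The summed level of NK cell markers was 82.8 to 84.1 in knockout cells and 80.8 to 81.1 in wild-type cells. Il2rb, a receptor chain that activated T cells also express, made up 60.9% to 66.0% of it in knockout cells and 60.9% to 62.7% in wild-type cells, so the sum says little of the dimmer Ly49 genes. The part of CD8 and NK markers in the granzyme differences was not tested.

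Of the 3 gamma-delta T cell markers tested, Cd163l1 was higher by 1.12 ± 0.36 (SE), and Blk and Sox13 differed by 0.73 and -0.08. The summed level was 0.948 to 0.965 in knockout cells and 0.841 to 0.925 in wild-type cells. Mast cells and basophils, which express the chymases next to the granzymes, were read from 10 markers on the array. Of these, 3 were tested and 0 called, Tpsb2 and Kit being at 0.11 and 0.06 at their brightest probes. The other tested probe of Tpsb2 differed by -0.84. Cpa3, Fcer1a, Ms4a2, Mcpt8, Cma1 and Tpsab1 were not well above background on any array. The summed level of the 3 was 2.21 to 2.31 in knockout cells and 1.92 to 2.39 in wild-type cells. Of 6 tested B cell markers, Cd79b was higher by 1.16, and Cd22 and Ebf1 were lower, at -0.60 and -0.97, the probes of Cd79b and Cd22 being in corner blocks. The summed level was 4.43 to 4.87 in knockout cells and 3.0 to 3.99 in wild-type cells. Cd79b made up 69.3% and 72.3% of it on the knockout arrays, against 46.1% and 39.4% on the wild-type arrays. That sum therefore says little of the other B cell markers. Of 9 macrophage and dendritic cell markers Cd74 was higher by 0.48, and Itgax and Cd14 were at 0.85 and -0.67. The summed level was 24.8 to 25.2 in knockout cells and 21.8 to 22.5 in wild-type cells. The part of these markers in the granzyme differences was not tested either.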

How the data were processed

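Per the file headers, the authors' scanner outputs came from Agilent Feature Extraction 10.5.1.1, and the processed signal in them is a background-subtracted intensity on a linear scale. The same deposited files hold the fitted multiplicative surface, a ratio. In an alternative, the processed signal of knockout array 1 alone was divided by that surface. A log2 matrix, also deposited by the authors, held per column the log2 processed signal of its array plus a constant, within 0.001 for 99.4% to 99.5% of probes. It was used as an alternative. All its columns had a median of 5.54, and how it was made is not given in the sources used here.

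Control spots and outlier spots were left out, spots of a probe were averaged, and the 75th percentile of an array was subtracted from its log2 signals. Genes were named through RefSeq (GRCm38.p6), and each was given by its brightest tested probe. Probe positions are those of the files (mm9). limma 3.58.1 in R 4.3.3 compared genotypes over 19151 genes and, apart, over 37196 probes, with Benjamini-Hochberg adjustment, 2 residual and 2.16 prior degrees of freedom. The fit was tested on simulated data. Tables and figures used pandas 2.3.3 and matplotlib 3.10.9. An unadjusted threshold of 0.05 is used to count genes, since 0 passed after adjustment.

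The members, the gene lists and the alternatives were chosen with earlier results of these data known. The text names all members; of each list, genes with an unadjusted p under 0.05 and the 2 with the largest absolute difference; the 3 nearest tested neighbours on each side; and the 5 nearest patterns of Gzmb, Gzmc and Prf1. Further list genes are named for their known roles, after their values were seen. Alternatives covered scaling, background correction, detrending, the deposited matrix, filters, the variance prior, corner blocks, the replicate number and each array left out.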

Additional observations from a re-analysis of the deposited data

How the results depend on the processing

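Each of 16 alternatives kept the sign of Gzma, Gzmb, Gzmc, Gzme, Gzmm and Prf1, and the 14 that applied kept that of Gzmf. Gzma ran from 0.73 to 1.72 (unadjusted p under 0.05 in 12 of 16), Gzme from 0.91 to 2.62 (9 of 16), Gzmm from -0.65 to -0.13 (1 of 16) and Gzmf from 0.47 to 2.77 (2 of 14), the low Gzmf values including 0.55 with normexp background correction. No adjusted p of a member passed 0.05, the smallest being 0.0573 for Gzmb and Gzmc with normexp. Gzmk turned negative with scaling by array medians (-0.117), with the deposited matrix (-0.117), with knockout array 1 divided by its surface (-0.096) and with the mean of its probes (-0.154), and ran from -0.149 to 0.235 with 1 array left out. The count of 5 members higher at an unadjusted p under 0.05 was 3 with median scaling and with the deposited matrix, and 3 to 6 with 1 array left out. Over all genes, 2174 had an unadjusted p under 0.05 in either direction, and 4239 with normexp. Leaving out 1 array gave 1428 to 2195 genes, with 0 to 50 at an adjusted p under 0.05 (50 without knockout replicate 2, 27 without wild-type replicate 1). For probes it gave 2352 to 3931 of a main 3767, with 0 to 53 after adjustment (53 without wild-type replicate 1). The cause of these changes was not tested. Of the genes at an unadjusted p under 0.05, 1384 were higher and 790 lower (63.7% higher); median scaling, which moved the median of all genes to -0.144, gave 733 and 2211 (24.9% higher), and the deposited matrix 733 and 2212. Quantile scaling gave 51.6% higher. Replicate numbers were shared between genotypes, but same-numbered arrays did not deviate together (correlation -0.000945), so the numbers were not taken as pairs. With the replicate block 1710 genes and 2835 probes had an unadjusted p under 0.05, 0 an adjusted one, and 4 members were higher. Of the list medians under alternatives, 165 moved by less than the spread and 27 by more. All arrays shared 1 slide, so the slide or scan block was not run. Dim probes (Gzmd, Gzmg, Gzmf and the second Gzme probe) are limited by signal over background.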

Other observations

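Gzmn, a granzyme gene of the chromosome 14 cluster, was printed 10 times on the array, and none of its spots was well above background on the knockout arrays. On wild-type array 1 a single spot was, with a processed signal of 30.8, but the software marked it as an outlier and it was left out. The mean signals over the remaining spots were 2.28 and 3.38 in knockout cells and 2.49 and 3.11 in wild-type cells.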
